A study of Mus musculus with 12 samples.

Results

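The genes described here are the glutamate receptor subunits and the proteins that bind them, taken by a list of 34 symbols from the 24985 genes in a table of raw RNA-seq counts. The list held 4 AMPA receptor subunits, 6 NMDA receptor subunits, 5 kainate receptor subunits, 1 delta receptor subunit, 6 metabotropic receptors and 12 auxiliary or scaffold proteins. All 34 were in the table and passed the filter on low counts. Bulk RNA-seq was run on the dorsal hippocampus of 12 C57Bl6/J mice labelled male, 3 in each of 4 groups, to examine how dietary acetate and pathological tau act together on the hippocampus.

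Every mouse had received a unilateral injection at 6 months of age, either of PBS or of 1 ug AD-Tau, the sarkosyl-insoluble tau purified from the frontal cortex of people with Alzheimer's disease. For the following 6 months the mice ate standard TestDiet chow (control diet) or LabDiet 5001 with 5% Na-acetate (acetate diet). The study's methods describe the control chow as equal in calories, and its base chow is otherwise not given in the sources used here. The right hippocampus was collected 24 hours after a remote memory recall test, so all 4 groups shared surgery, training and recall. Against the label, all 12 mice had counts of Xist, the RNA that coats the inactive X, and the 49 genes of the Y chromosome summed to 0 counts.

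Glutamate carries most excitatory transmission in the hippocampus. AMPA receptors pass the fast synaptic current, NMDA receptors admit calcium and trigger plasticity, kainate receptors tune release and excitability, and metabotropic receptors act through G proteins. Auxiliary proteins (the TARPs encoded by Cacng genes, the cornichons, and the Neto proteins) set the trafficking and gating of the channels, and scaffolds such as PSD-95 and Homer1 hold them at the synapse.

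RefSeq promoters (GRCm38.p6) were on hand for 23 of the 34 genes, as 31 windows of the 250 bases before a listed start. The 3 windows printed here belong to genes called in a comparison below and lie outside the annotated gene, namely Gria2 (chr3:80802836-80803085, minus strand), Grm7 (chr6:110645262-110645511, plus strand) and Neto2 (chr8:85700925-85701174, minus strand). Each reads 5′ to 3′ on the gene's strand, and capitals mark GC boxes.
Gria2: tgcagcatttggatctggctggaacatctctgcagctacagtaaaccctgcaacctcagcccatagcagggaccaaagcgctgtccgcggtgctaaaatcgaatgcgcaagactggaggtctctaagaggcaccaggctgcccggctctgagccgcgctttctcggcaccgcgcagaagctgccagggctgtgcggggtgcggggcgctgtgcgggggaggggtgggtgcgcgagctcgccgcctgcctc
Grm7: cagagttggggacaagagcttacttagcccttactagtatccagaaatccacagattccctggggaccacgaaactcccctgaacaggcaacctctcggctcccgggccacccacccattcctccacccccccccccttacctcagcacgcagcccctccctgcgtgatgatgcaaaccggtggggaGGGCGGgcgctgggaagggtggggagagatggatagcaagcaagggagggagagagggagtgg
Neto2: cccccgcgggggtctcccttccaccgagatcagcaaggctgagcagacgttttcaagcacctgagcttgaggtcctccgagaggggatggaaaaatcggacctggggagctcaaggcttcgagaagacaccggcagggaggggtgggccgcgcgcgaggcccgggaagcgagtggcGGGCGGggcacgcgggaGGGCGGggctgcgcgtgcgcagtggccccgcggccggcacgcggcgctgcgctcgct

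A GC box (GGGCGG on either strand) was present in 15 of the 31 windows, against 32.7% of 32851 RefSeq windows of that length. The Grm7 window held 1 GC box, the Neto2 window held 2 and the Gria2 window held 0. An E-box (CACGTG) was found in the windows of Grin1 and Cnih3 and in 6.02% of all windows. The left arm of RE1 (TTCAGCACC), the site of the neuronal repressor REST, was found in the window of Grm2 and in 0.301% of all windows. Neither the cyclic AMP response element (TGACGTCA, 1.55% of all windows) nor the TATA box (TATAAA, 12.4%) was found in a member's window. These matches are a description of the letters in the windows.

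Counts per mouse totalled 12983233 to 20218340, of which the 34 genes took 0.811% to 0.921%. Their counts ran from 34 for Grm8 in the lowest mouse to 32836 for Gria1 in the highest. Replicates of a group differed by more than counting noise, and the coefficient of variation within groups ranged from 1.72% for Gria2 to 25.9% for Grm4. Nothing in the labels places the mice in separate litters or days, so p-values measure the spread between these 12 mice.

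The dissected tissue differed between groups in its regional markers. In PBS-injected mice the summed level of 5 CA1 markers was 471 to 598 CPM, counts scaled to library size, on the control diet and 727 to 951 on the acetate diet, and 3 of the 5 (Fibcd1, Mpped1 and Pou3f1) were called higher. Summed CA3 markers were 362 to 444 CPM on the control diet and 177 to 309 on the acetate diet, with 3 of 5 (Iyd, Cpne4 and Nectin3) called lower. In tau-injected mice the CA1 sums (618 to 776 and 662 to 942) and the CA3 sums (258 to 351 and 216 to 332) of the diets overlapped. Oligodendrocyte markers summed to 7286 to 9410 CPM in control-diet PBS mice and to 4580 to 6309 CPM in acetate-diet PBS mice, with 2 of the 8 called lower. In tau-injected mice they overlapped, at 4838 to 5860 CPM on the control diet and 5534 to 8878 CPM on the acetate diet, with 7 of the 8 higher on the acetate diet at an unadjusted p below 0.05 and 0 called by edgeR. In PBS-injected mice the summed level of 4 markers of glutamatergic neurons overlapped between the diets (7842 to 8081 and 7505 to 8265 CPM). Most of that sum was Camk2a (means of 5671 CPM on the control diet and 5961 on the acetate diet). Of the 4 markers, 3 were lower on the acetate diet, and Slc17a7 and Neurod6 were called. Thalamic markers reached 236 CPM in control-diet PBS mouse 2 against 47.0 to 119 in the other mice, and choroid plexus markers reached 477 CPM in acetate-diet tau mouse 3 against 64.4 to 202. Of 5 blood markers, 4 had no count in any mouse. In bulk tissue, fewer cells of a type and less RNA per cell cannot be told apart.

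**Figure D1:**
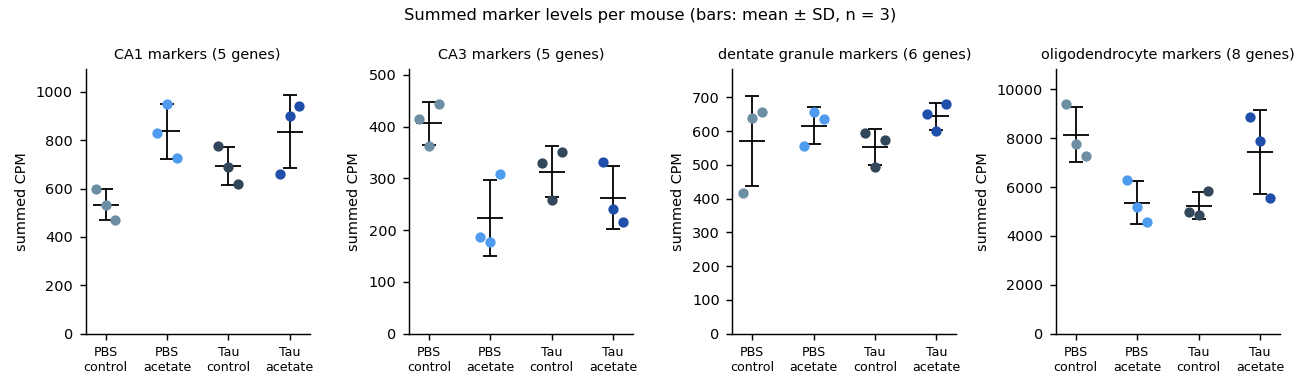
Summed CPM of the CA1, CA3, dentate granule cell and oligodendrocyte marker lists in each mouse (points), with group mean ± SD (n = 3), for PBS- and tau-injected mice on either diet. The 3 PBS-injected mice on the acetate diet lie above those on the control diet for CA1 markers (727 to 951 against 471 to 598 CPM) and below them for CA3 markers (177 to 309 against 362 to 444 CPM).

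Gria1, which encodes the GluA1 subunit, was the most abundant receptor subunit. Levels between genes were compared as CPM per kb of annotated exon, which understates genes with long exons that are seldom used. On that scale Gria1 averaged 257 ± 13.7 (SD over 12 mice), or 69.0% of the AMPA total. Gria2, whose GluA2 subunit keeps AMPA receptors impermeable to calcium, followed at 77.5 ± 4.38, then Gria3 at 28.8 ± 1.77 and Gria4 at 9.30 ± 0.610. No neighbors in this order overlapped over the 12 mice. Part of the gap between Gria1 and Gria2 is length, since the annotated exons span 6.04 kb in Gria1 and 15.5 kb in Gria2, whose mean CPM were 1554 and 1206.

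Grin1, the obligatory NMDA receptor subunit, led its class at 69.3 ± 3.49 CPM per kb. The glutamate-binding partners Grin2b (37.9 ± 2.48) and Grin2a (34.9 ± 1.60) had overlapping ranges. Grin2c stood at 12.1 ± 0.974, whereas Grin3a reached at most 3.77 and Grin2d at most 1.72 CPM per kb. Among kainate subunits Grik5, a high-affinity subunit that needs a partner to form a channel, reached 54.8 ± 2.43, and the related Grik4 reached 10.4 ± 2.05. Grik4 overlapped with Grik2 (7.05 ± 0.443), and Grik2 with Grik3 (5.53 ± 0.736). Grid1, the only delta subunit on the list, averaged 11.4 ± 0.861.

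Grm5, the group I receptor coupled to phospholipase C, was the most abundant metabotropic receptor at 33.5 ± 2.24 CPM per kb. Grm3 (17.5 ± 1.98), Grm2 (13.5 ± 1.69) and Grm7 (10.7 ± 0.915) formed a run in which each overlapped with the next. Grm8 was the lowest of all 34 genes at 0.392 ± 0.0988. Cnih2, a cornichon that slows AMPA receptor gating, was the highest of all at 310.2 ± 20.96. Cacng8, the main TARP of the hippocampus, followed among auxiliary genes at 67.9 ± 4.07, with Dlg4 (PSD-95) at 60.9 ± 3.36 and Cacng7 at 56.2 ± 3.57, and each of these overlapped with its neighbor.

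**Figure D2:**
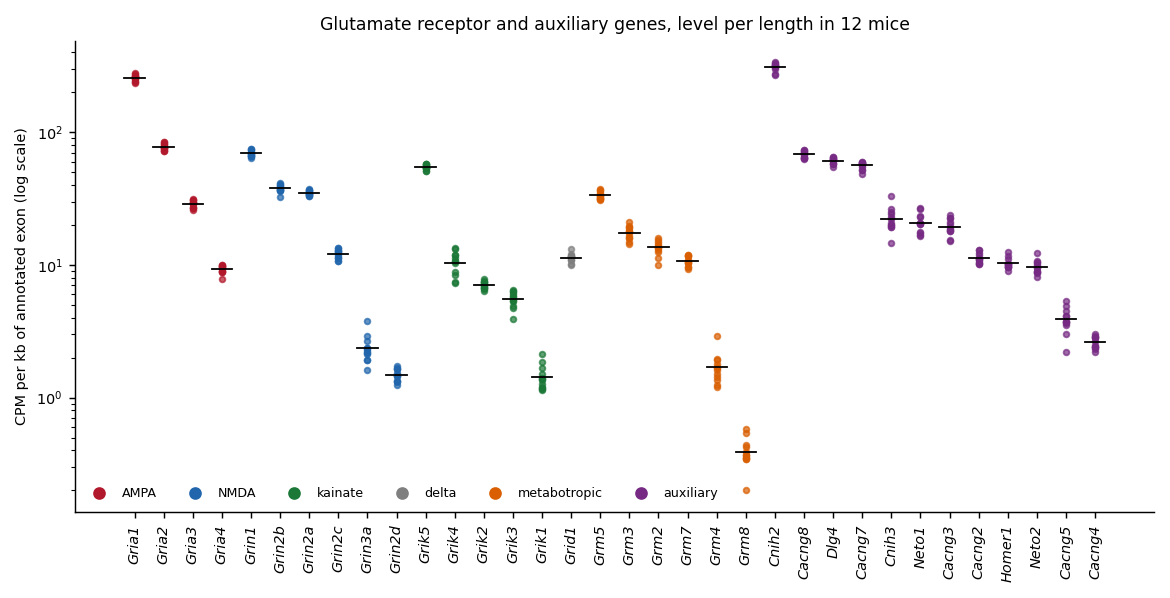
Level of each of the 34 genes in each of 12 mice (points) as CPM per kb of annotated exon on a log axis, with the mean as a bar, colored by class. The means run from 0.392 for Grm8 to 310.2 for Cnih2, and Gria1 stands above every other receptor subunit.

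The acetate diet in PBS-injected mice gave most of the differences among these genes. With the call set at an adjusted p below 0.1 in edgeR, 8 of the 34 were called, against 8.84% of 14742 genes tested. Gria1, Gria2, Dlg4 and Grm5 were higher on the acetate diet, against 3.99% of all genes, and Cacng2, Neto2, Grm7 and Grik4 were lower, against 4.85%. The groups did not overlap for 15 of the 34, against 26.3% of all genes. Within the 34 genes' range of levels, 3.88 to 1554 CPM, 9.71% of 11925 genes were called. Abundant genes were called more often, and of the 3750 genes at or above the 34 genes' median level of 64.6 CPM, 15.4% were called. The median change was 0.12 on the log2 scale over the 34 and 0.0042 over all genes tested. The call count changed when single mice were left out. It was 0 without acetate-diet PBS mouse 2, 1 without acetate-diet PBS mouse 1 or control-diet PBS mouse 3, and 2 without control-diet PBS mouse 1. Without acetate-diet PBS mouse 3 it was 11. Each such fit has a smaller group, and its share of all genes called is not reported here. Whether the call counts are particular to the 34 genes was not tested. With the CA1 minus CA3 marker score of each mouse as a covariate, a fit added after the data were seen, 0 of the 34 and 0 of all 14742 genes were called. In that fit 3 of the 34 had an unadjusted p below 0.05, and the share of all genes below that p is not reported here. The marker score did not overlap between the diets in PBS-injected mice (-0.93 to -0.62 against 0.12 to 1.08 on the log2 scale), so in these 6 mice diet and regional makeup cannot be told apart. Summed oligodendrocyte markers did not overlap either (7286 to 9410 against 4580 to 6309 CPM), so diet and oligodendrocyte share cannot be told apart here.

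Gria1 (chr11:57011387-57330244, GRCm38) read 1479, 1411 and 1438 CPM in the 3 control-diet PBS mice and 1647, 1693 and 1593 CPM in the 3 acetate-diet PBS mice. All acetate-diet mice lay above all control-diet mice, a log2 change of 0.19 ± 0.05 (SE, adjusted p = 0.0344, edgeR). The change was 0.07 ± 0.08 with the marker score as covariate. Gria2 (chr3:80681450-80802835) read 1175, 1173 and 1183 CPM on the control diet and 1309, 1303 and 1275 CPM on the acetate diet. Again the groups did not overlap, and the log2 change was 0.14 ± 0.04 (adjusted p = 0.0751, edgeR). With the covariate it was 0.14 ± 0.08, and for neither gene can that fit separate diet from regional makeup. Gria3, the third AMPA subunit, had a log2 change of 0.11 ± 0.05 without a call (adjusted p = 0.206, edgeR), and Gria4 one of -0.11.

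None of the 6 NMDA subunits was called, although all 6 had a change above 0, from 0.09 for Grin2a to 0.38 for Grin3a on the log2 scale. Grin1 (0.14 ± 0.05, adjusted p = 0.125, edgeR) and Grin2c (0.21 ± 0.07, adjusted p = 0.123, edgeR) came nearest. The 95% interval for Grin2b was -0.0026 to 0.26, and that for Grin2a was -0.02 to 0.20.

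Grik4 (chr9:42518135-42944493) showed the largest change of the 8. Its levels were 79.9, 70.3 and 78.0 CPM on the control diet and 50.4, 44.2 and 63.3 CPM on the acetate diet. Grik4 thus fell by 0.54 ± 0.15 on the log2 scale with no overlap (adjusted p = 0.0736, edgeR). The CA3 markers given above were lower in the same mice, and with the marker score as covariate the log2 change was 0.042 ± 0.16. Since that score did not overlap between these groups, the fit cannot separate diet from regional makeup. The other kainate genes were not called. Grik2 had a log2 change of 0.13 and Grik1 of 0.43, while the 95% interval for Grik5 was -0.14 to 0.10.

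Grm5 (chr7:87584168-88134907) read 327, 323 and 318 CPM in control-diet and 371, 377 and 339 CPM in acetate-diet PBS-injected mice. It was higher by 0.17 ± 0.05 on the log2 scale without overlap (adjusted p = 0.0767, edgeR), and the covariate fit gave -0.0076 ± 0.09. Grm7 (chr6:110645581-111567230), a group III receptor of presynaptic terminals, moved the other way. It stood at 68.8, 69.3 and 70.0 CPM on the control diet and at 60.7, 56.6 and 61.3 CPM on the acetate diet. Here too the groups were apart, and Grm7 fell by 0.22 ± 0.06 on the log2 scale (adjusted p = 0.0508, edgeR), with -0.09 ± 0.11 in the covariate fit. The metabotropic receptors Grm2, Grm3, Grm4 and Grm8 were not called.

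Cacng2 (chr15:77991748-78120028), which encodes stargazin, had the smallest p of the 34. Its levels were 71.7, 68.2 and 71.4 CPM on the control diet and 56.9, 56.0 and 61.8 CPM on the acetate diet in PBS-injected mice. It fell by 0.28 ± 0.06 on the log2 scale without overlap (adjusted p = 0.0268, edgeR), and the covariate fit gave -0.15 ± 0.12. Other TARP genes were not called, and Cacng3, with a log2 change of 0.34 ± 0.12 (adjusted p = 0.122, edgeR), had the opposite sign. Neto2 (chr8:85636588-85700924), an auxiliary subunit of kainate receptors, read 75.3, 62.8 and 66.0 CPM on the control diet and 53.9, 53.4 and 55.2 CPM on the acetate diet. It fell by 0.33 ± 0.09 (adjusted p = 0.0437, edgeR), with -0.31 ± 0.17 in the covariate fit. Its paralog Neto1 had a log2 change of -0.35 ± 0.13 without a call (adjusted p = 0.159, edgeR). Dlg4 (chr11:70016942-70047522), the PSD-95 gene, read 759.8, 759 and 721 CPM on the control diet and 822, 855 and 831 CPM on the acetate diet. It was higher by 0.16 ± 0.05 (adjusted p = 0.0676, edgeR), and by 0.04 ± 0.08 in the covariate fit. Homer1, the partner of Grm5, had a 95% interval of -0.21 to 0.12.

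**Figure D3:**
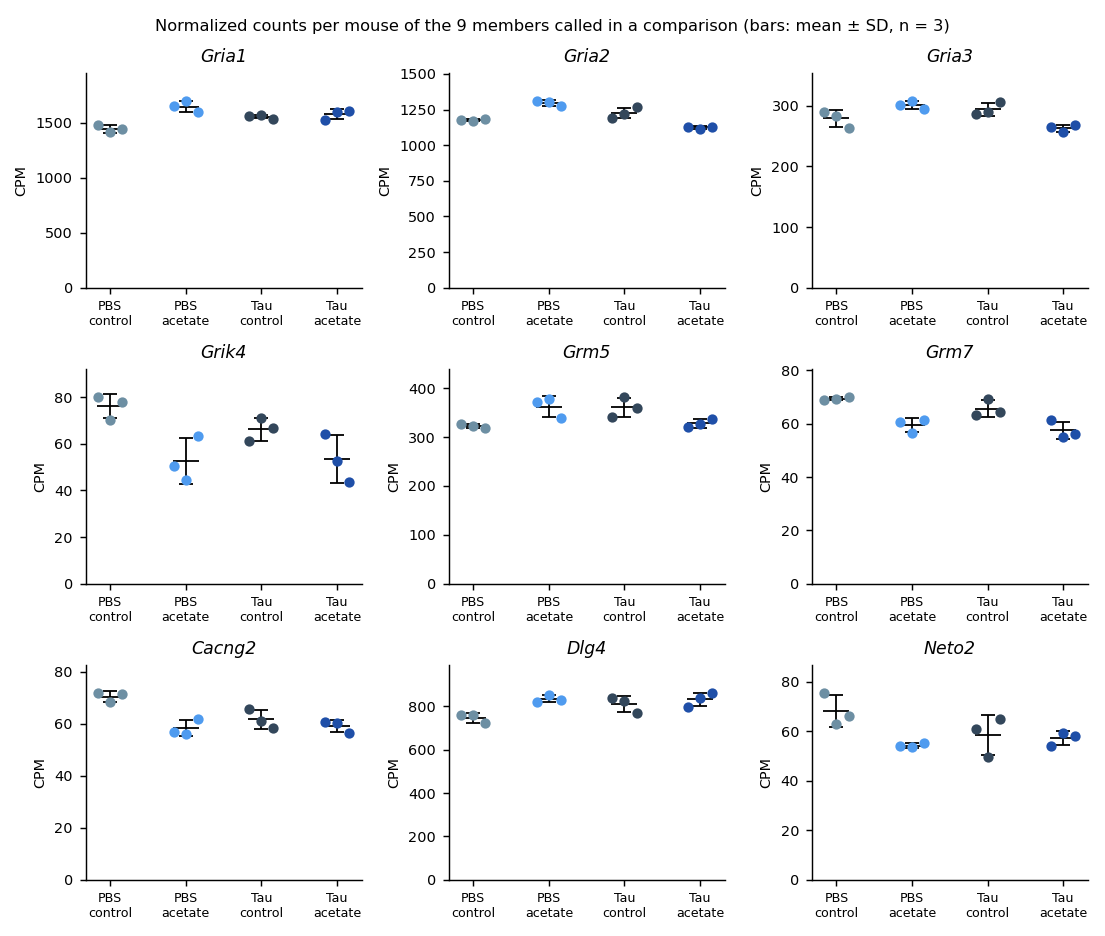
CPM of the 9 genes called in any comparison in each mouse (points), with group mean ± SD (n = 3). In PBS-injected mice the diet groups do not overlap for any of the 9, which were picked by calls in these same data. The same is true of 26.3% of all genes tested. Gria1, Gria2, Gria3, Grm5 and Dlg4 are higher and Grik4, Grm7, Cacng2 and Neto2 lower on the acetate diet in PBS-injected mice. In tau-injected mice Gria2 reads 1192 to 1265 CPM on the control diet and 1115 to 1131 CPM on the acetate diet.

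Among tau-injected mice the acetate diet gave 0 calls among the 34, against 0.0611% of all genes. At an unadjusted p below 0.05 by edgeR were 7 of the 34, against 1603 of the 14742 genes tested. The smallest adjusted p was 0.261 by edgeR, and the groups did not overlap for 7 genes, against 14.4% of all genes. DESeq2's Wald test on the same 12 mice called Gria2, Gria3 and Neto1, all lower with acetate. Over all genes DESeq2 also called more than edgeR, as counted in the last section. Gria2 read 1192, 1219 and 1265 CPM on the control diet and 1129, 1115 and 1131 CPM on the acetate diet, a log2 change of -0.12 ± 0.04. Gria3 (chrX:41400854-41678601) read 286, 290.0 and 306 CPM on the control diet and 265, 256 and 268 CPM on the acetate diet, a log2 change of -0.16 ± 0.05. In both genes every acetate-diet mouse lay below every control-diet mouse. Grm5 read 342, 382 and 359 CPM against 320.0, 327 and 337 CPM on the acetate diet, a log2 change of -0.14 ± 0.05. Grm7 had a log2 change of -0.19 ± 0.06, the same sign as in PBS-injected mice. Gria1 differed by 0.02 on the log2 scale, with a 95% interval of -0.07 to 0.12. Grik4 had a log2 change of -0.31 ± 0.15 (adjusted p = 0.499, edgeR), and its 61.2, 71.0 and 66.7 CPM on the control diet overlapped with its 64.1, 52.5 and 43.4 CPM on the acetate diet.

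**Figure D4:**
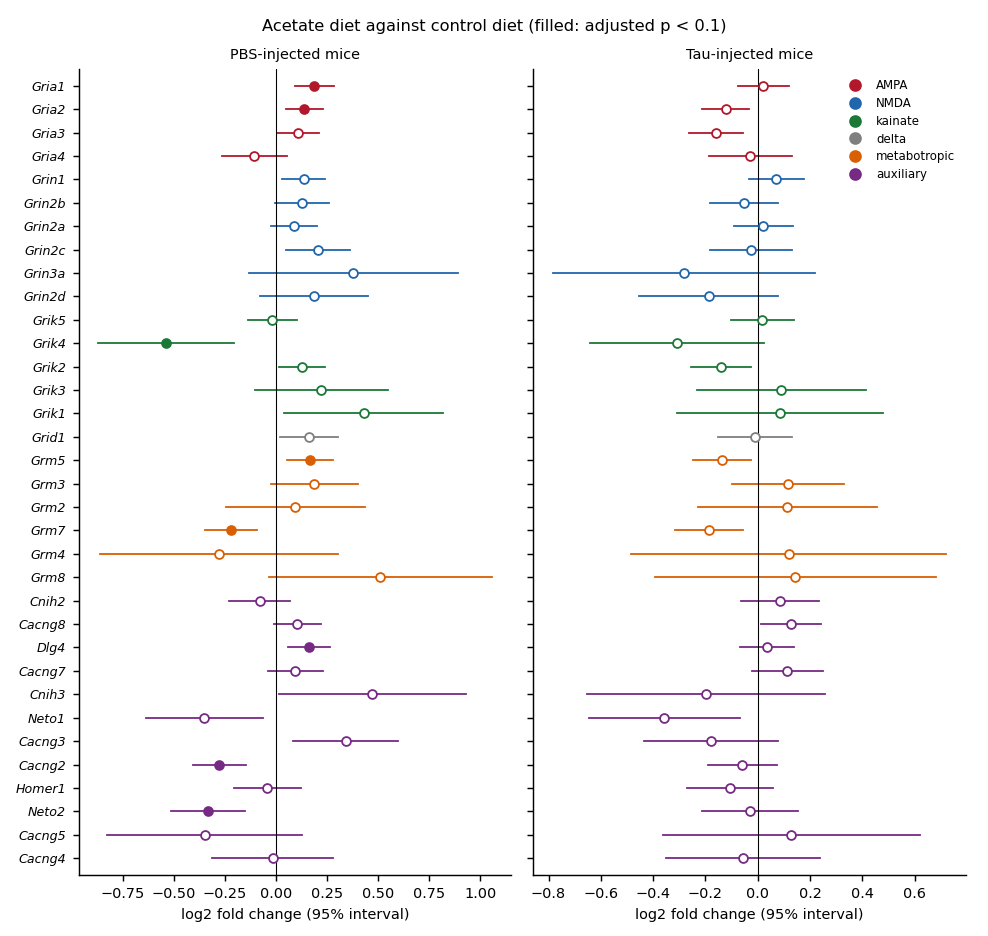
Log2 fold change of the acetate diet against the control diet with its 95% interval for the 34 genes, in PBS-injected and tau-injected mice, colored by class and filled where the adjusted p was below 0.1. The 8 filled points are in PBS-injected mice, from -0.54 for Grik4 to 0.19 for Gria1, and the tau-injected panel has none.

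The diet effect differed between injections for Gria2, Grm5 and Gria3. In the test of the interaction, which subtracts the diet change in PBS-injected mice from that in tau-injected mice, these 3 of the 34 were called, against 1.56% of all genes and 1.84% of those at or above the 34 genes' median level. All 3 were negative on the log2 scale, with -0.26 ± 0.06 for Gria2 (adjusted p = 0.0659), -0.30 ± 0.07 for Grm5 (adjusted p = 0.0755) and -0.27 ± 0.07 for Gria3 (adjusted p = 0.0839) by edgeR. Each gene's diet change was above 0 in PBS-injected and below 0 in tau-injected mice. Gria3 stood at 290.2, 284 and 264 CPM in control-diet and 302, 307 and 295 CPM in acetate-diet PBS-injected mice. Grik2 (-0.27 ± 0.08, adjusted p = 0.123) and Cacng3 (-0.52 ± 0.17, adjusted p = 0.194) followed without a call by edgeR. Another 6 genes had an unadjusted p below 0.05, of which Gria1, Grin2c, Grin2d and Cnih3 were negative, and Cacng2 (0.22 ± 0.09) and Neto2 (0.30 ± 0.12) positive. In all, 11 of the 34 and 1916 of the 14742 genes tested had an unadjusted p below 0.05 by edgeR. With the marker score as covariate the interaction was -0.26 ± 0.08 for Gria2, -0.24 ± 0.09 for Gria3 and -0.18 ± 0.08 for Grm5, with 0 calls. In that fit 5 of the 34 had an unadjusted p below 0.05, and the share of all genes below that p is not reported here. The 8 oligodendrocyte markers moved in the same contrast with the opposite sign, with a median interaction of 1.07 on the log2 scale and all 8 at an unadjusted p below 0.05, although edgeR called 0 of them (smallest adjusted p = 0.104). Their part in the 3 calls was not tested. The count of 3 fell to 0 without any one of control-diet PBS mouse 2, acetate-diet PBS mice 1 and 2, control-diet tau mouse 2 and acetate-diet tau mice 1 and 2. It fell to 1 without control-diet PBS mouse 1 or 3. The share of all genes called in these smaller fits is not reported here.

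Tau injection on the control diet gave 0 calls among the 34, against 0.0136% of all genes. By edgeR the smallest adjusted p was 0.356. At an unadjusted p below 0.05 by edgeR were 9 of the 34, against 1423 of the 14742 genes tested. Of the 9, Cacng2 and Neto2 were lower and Grm5, Grid1, Homer1, Grin2b, Dlg4, Gria1 and Grin3a higher. DESeq2 called 0 as well, with 11 at an unadjusted p below 0.05. The share of all genes below that p by DESeq2 is not reported here, so the 11 cannot be set against all genes. The groups did not overlap for 7 genes, against 13.5% of all genes. Cacng2 read 65.6, 61.0 and 58.2 CPM in these tau-injected mice, each below the 68.2 to 71.7 CPM of PBS-injected mice, a log2 change of -0.19 ± 0.06 (adjusted p = 0.356, edgeR). Grm5 and Grid1 had log2 changes of 0.16 ± 0.05 and 0.20 ± 0.07. The regional and oligodendrocyte markers separated these groups too. Summed CA1 markers were 618 to 776 CPM with tau against 471 to 598 with PBS, CA3 markers 258 to 351 against 362 to 444, and oligodendrocyte markers 4838 to 5860 against 7286 to 9410. All 8 oligodendrocyte markers were below 0 at an unadjusted p below 0.05, with 0 called by edgeR. With the CA1 minus CA3 marker score as covariate, 1 of the 34 had an unadjusted p below 0.05, and the share of all genes below that p is not reported here. The marker score did not overlap between these groups (-0.93 to -0.62 with PBS and -0.38 to 0.089 with tau). Tau injection and regional makeup therefore cannot be told apart in these mice. The part of the oligodendrocyte markers was not tested. The same control-diet PBS mice serve as the reference for the acetate diet, so values of both comparisons lean on them.

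On the acetate diet, tau injection again gave 0 calls, against 0.136% of all genes. At an unadjusted p below 0.05 by edgeR were 5 of the 34, against 1523 of the 14742 genes tested. All 5 were lower in tau-injected mice, and 6 genes had groups that did not overlap, against 16.2% of all genes. Gria2 came nearest, with 1129, 1115 and 1131 CPM in tau-injected mice, all below the 1275 to 1309 CPM of PBS-injected mice. Its log2 change was -0.20 ± 0.04 (adjusted p = 0.114, edgeR). Gria3 (-0.20 ± 0.05, adjusted p = 0.168) and Grik2 (-0.20 ± 0.05, adjusted p = 0.177) had changes of like size by edgeR. DESeq2 called Gria2 and Gria3, and edgeR without the filter on low counts called Gria2. Over all genes both of these fits also called more than the main fit, as counted in the last section. Oligodendrocyte markers overlapped between these groups (4580 to 6309 CPM with PBS and 5534 to 8878 CPM with tau), with 5 of the 8 higher at an unadjusted p below 0.05 and 0 called. This comparison and the acetate comparison in PBS-injected mice share the acetate-diet PBS mice, so their values are not independent.

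**Figure D5:**
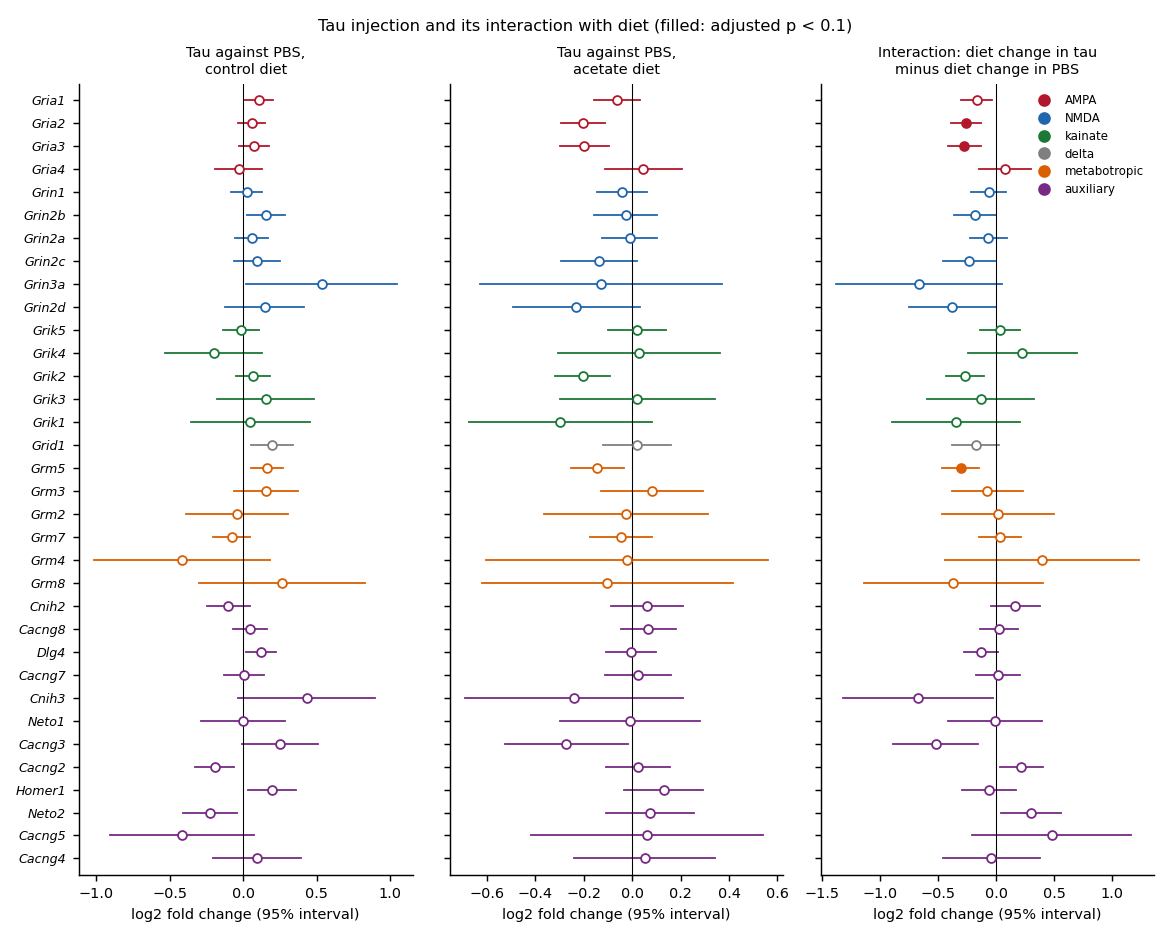
Log2 fold change with its 95% interval for the 34 genes in tau-injected against PBS-injected mice on the control diet and on the acetate diet, and for the interaction of diet and injection, colored by class and filled where the adjusted p was below 0.1. Filled points appear only in the interaction panel, for Gria2 (-0.26), Gria3 (-0.27) and Grm5 (-0.30), and both tau panels have 0.

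Ratios of CPM within a mouse do not depend on scaling between mice. For 4 pairs of genes chosen after the values were seen, 16 exact two-sided permutation tests of 3 mice against 3 were run, in which no p can be below 0.1 and the smallest adjusted p was 0.32. Gria1 to Gria2 was 1.23 ± 0.0289 and 1.27 ± 0.0266 in control-diet and acetate-diet PBS mice, and 1.27 ± 0.0484 and 1.40 ± 0.0433 in tau-injected mice (SD, n = 3). Acetate-diet tau mice lay above both other groups they were compared with. Cacng2 to Cacng8 was 0.468 ± 0.0148 in control-diet PBS mice, above all other groups, whose means were 0.361, 0.398 and 0.349. Grin2b to Grin2a, the pair that changes during development, had means of 1.46 to 1.56 and overlapped in every comparison. Grik4 to Grik5 averaged 0.268 in control-diet PBS mice and 0.187 on the acetate diet, without overlap.

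Other genes of the glutamatergic synapse, from lists compiled with earlier results of these data known, were counted in the same fits. In PBS-injected mice, among 21 genes of AMPA receptor assembly and trafficking, the acetate diet went with lower Nptx1 (-0.35 ± 0.06), a pentraxin that clusters AMPA receptors, and Abhd6 (-0.24 ± 0.07), and with higher Shisa7 (0.24 ± 0.06) and Gripap1 (0.16 ± 0.05), all on the log2 scale. Among 20 postsynaptic scaffold genes 2 were called, both higher, with Iqsec2 (0.24) among them. Among 24 adhesion genes Adgrb3 (0.28) and Slitrk1 (0.21) were called higher and 1 gene lower. Among 26 calcium and kinase genes Camk4, Prkca, Ppp3cb and Rasgrp1 were lower, by 0.18 to 0.45, and Camk2g and Rasgrf1 were higher. Among 16 tested genes of glutamate release, transport and metabolism 4 were called lower, including Slc17a7 (-0.22), the vesicular transporter VGLUT1, Slc38a1 (-0.22) and Slc38a2 (-0.40). The 1 called higher was Slc1a3 (0.23), the astrocytic transporter GLAST. In tau-injected mice, where 0.0611% of all genes were called for the acetate diet, 1 gene of these lists was called. It was Nlgn1, which fell by 0.26 ± 0.05 (adjusted p = 0.0844, edgeR). No gene of these lists was called by edgeR for tau injection on either diet or for the interaction.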

How the data were processed

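The authors aligned the reads of directional polyA libraries with STAR 2.5.2a to GRCm38, counted reads on exons per gene with HTSeq 0.9.1 on the reverse strand and deposited raw counts, 1 column per mouse, for 24985 genes. Their gene annotation is not given in the sources used here. No column of samples was left unused (0). Totals were 12983233 to 20218340 per mouse.

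Everything else was computed here. Genes were filtered with filterByExpr (minimum count 10, minimum total 15), which kept 14742. edgeR 4.0.16 (R 4.3.3) gave TMM-normalized CPM and robust quasi-likelihood F tests with 1 mean per group over 12 mice. The Benjamini-Hochberg adjustment ran over all 14742, with calls at an adjusted p below 0.1. Standard errors come from the F statistic. The functions were tested on simulated data. Alternatives were DESeq2 1.42.0, its size factors, no filter, a threshold of 0.05, the 6 compared mice alone, a block for the replicate number and each mouse left out; a CA1 minus CA3 marker score covariate (mean log2 CPM of the CA1 list minus that of the CA3 list, gene means at 0) was added after the data were seen. GENCODE mouse release 21 (GRCm38) supplied exon lengths and gene coordinates. Genes called in a comparison, and the most abundant gene of each class, are given with full values. Some genes of the synapse lists are not reported here. The 34 genes and all lists were chosen with earlier results of these data known.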

Additional observations from a re-analysis of the deposited data

Results flagged for a closer look

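For 3 genes the effect of the acetate diet differed between PBS-injected and tau-injected mice by the interaction test of edgeR. The difference between the diet changes was -0.26 on the log2 scale for Gria2, -0.30 for Grm5 and -0.27 for Gria3, each above 0 in PBS-injected and below 0 in tau-injected mice. With the CA1 minus CA3 marker score as a covariate the values were -0.26, -0.18 and -0.24, and none was called. All 8 oligodendrocyte markers had an interaction above 0 at an unadjusted p below 0.05, with a median of 1.07 on the log2 scale and 0 called by edgeR. Their part in these differences was not tested.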

How the results depend on the processing

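Of the 184 planned refits of single calls, 126 kept the call, 58 kept the direction and missed the threshold, and 0 changed direction. The 8 genes called for the acetate diet in PBS-injected mice became 3 at an adjusted p below 0.05, and 0 to 11 when 1 mouse was left out. They became 7 with no filter, which lost Grik4, 11 with DESeq2, which added Grin1, Cacng3 and Neto1, and 10 on the 6 compared mice, which lost Gria2 and added Cacng3, Cnih3 and Neto1. Without acetate-diet PBS mouse 1 only Gria1 was called, without control-diet PBS mouse 3 only Cacng2, and without control-diet PBS mouse 1 both. Over the 12 fits without 1 mouse, Gria1 and Cacng2 were called in 10, Grik4, Grm7, Dlg4 and Neto2 in 8, and Gria2 and Grm5 in 7. The marker score covariate gave 0, and it turned the direction of Grik4 (0.042) and Grm5 (-0.0076). The 3 interaction calls became 0 at an adjusted p below 0.05, 5 with DESeq2, which added Grik2 and Cacng3, 0 to 4 without 1 mouse and 0 with the covariate. The acetate diet in tau-injected mice gave 0 calls, 3 with DESeq2, and 0 in each fit without 1 mouse. Tau against PBS on the acetate diet gave 0, 2 with DESeq2 and 1 with no filter, and 0 in each fit without 1 mouse. Tau against PBS on the control diet gave 0 under every alternative. The cause of these changes was not tested, and the shares of all genes called in the fits without 1 mouse are not reported here.

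Over all genes, the calls for tau on the control diet numbered 2, but 86 with DESeq2, 35 on the 6 compared mice and 9 with the replicate block. The acetate diet in tau-injected mice gave 9, 176 with DESeq2 and 56 with no filter, and tau on the acetate diet 20, 121 and 37. The acetate diet in PBS-injected mice gave 1303 and 541 at an adjusted p below 0.05. The interaction gave 230, 438 with DESeq2, 349 with the replicate block and 43 at an adjusted p below 0.05. With the covariate the calls over all genes were 0 for tau on the control diet, 0 and 8 for the acetate diet in PBS-injected and tau-injected mice, 6 for tau on the acetate diet and 4 for the interaction.

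With the replicate block, 6 genes were called for the acetate diet in PBS-injected mice, without Gria2 and Grik4, and 3 for the interaction. Mice of the same number share only that number: of 18 same-numbered pairs, 2 had deviations correlated above 0.1, and 3 of 12 mice correlated best with their own number. For the acetate diet in PBS-injected mice, with 3 mice a group, the standard errors of the 34 genes ran from 0.04 for Gria2 to 0.27 for Grm4 on the log2 scale, and changes near a gene's error could not be called.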
